A study of Mus musculus with 6 samples.

Results

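The 9 genes described here encode proteins of the lipid droplet: the perilipins Plin1, Plin2, Plin3, Plin4 and Plin5, the CIDE protein gene Cidec, the fat storage-inducing transmembrane genes Fitm1 and Fitm2, and the seipin gene Bscl2. They were chosen by name, with earlier results of these data known, and all 9 were found among the 16627 genes of the deposited count table. The values come from inguinal white adipose tissue (iWAT, the subcutaneous fat of the groin) of mice held at 4 °C for 6 hours, in 3 libraries labelled adipocyte-specific Celf1 knockout (Celf1 AKO) and 3 littermate control libraries with the floxed Celf1 allele (Flox control). Both groups were exposed to cold, so no value speaks of the response to cold itself. The sources used here do not give the Cre line, the sex, the age or whether each library is 1 mouse, and p-values therefore measure only the spread between the libraries. Celf1 binds RNA and acts on the splicing and decay of transcripts, and the study concerns its place in the beiging of white fat.

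A lipid droplet is a core of triglyceride under a single layer of phospholipid, to which perilipins bind. In adipocytes Plin1 holds back lipases until protein kinase A phosphorylates it, and Cidec lets droplets exchange lipid and merge into the single large droplet of white fat. Plin5 is known from tissues that burn fatty acids, such as brown fat, heart and muscle, where it links droplets to mitochondria. Seipin and the FIT proteins sit in the endoplasmic reticulum, where droplets form.

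Plin4 and Plin5 are neighbours on mouse chromosome 17 (GRCm38, minus strand, 1797 bases apart in GENCODE M21), and the fitted differences of the pair between the groups had opposite signs, neither past the test over all genes. A promoter window of each is shown for that reason, from 250 bases before to 50 after the start site in RefSeq's GRCm38.p6 annotation. That of Plin2 is shown too, where a motif of the receptors that are known to act on these genes was found. Capitals mark TATAA in Plin4 and Plin5, and in Plin2 the best match to the direct repeat of the PPAR and RXR receptors.
Plin5, chr17:56117499-56117798, minus strand: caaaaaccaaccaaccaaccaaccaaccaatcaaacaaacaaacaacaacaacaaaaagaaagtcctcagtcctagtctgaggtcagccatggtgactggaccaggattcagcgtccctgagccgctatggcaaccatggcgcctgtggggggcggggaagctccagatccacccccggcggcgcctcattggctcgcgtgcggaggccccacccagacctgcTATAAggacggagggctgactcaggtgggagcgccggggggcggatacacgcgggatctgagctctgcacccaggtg
Plin4, chr17:56109733-56110032, minus strand: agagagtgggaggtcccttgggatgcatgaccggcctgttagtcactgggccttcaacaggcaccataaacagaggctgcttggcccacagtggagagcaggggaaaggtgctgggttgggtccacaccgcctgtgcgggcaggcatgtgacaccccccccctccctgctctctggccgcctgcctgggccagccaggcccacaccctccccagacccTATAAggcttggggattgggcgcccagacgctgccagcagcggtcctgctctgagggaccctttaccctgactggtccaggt
Plin2, chr4:86670010-86670309, minus strand: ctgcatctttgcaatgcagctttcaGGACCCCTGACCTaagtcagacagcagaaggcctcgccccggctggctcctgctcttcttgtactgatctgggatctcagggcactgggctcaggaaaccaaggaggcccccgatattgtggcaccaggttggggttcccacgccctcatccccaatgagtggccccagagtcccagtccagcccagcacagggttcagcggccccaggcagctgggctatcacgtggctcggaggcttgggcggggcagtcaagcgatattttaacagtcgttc

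The motif TATAA was searched on the sense strand only, after these sequences had been seen, at starts from 40 to 20 bases before the start site. It began 32 bases before that of Plin4 and 27 bases before that of the Plin5 window shown. It was in no other window of the 9 genes, among them another Plin5 window (chr17:56117249-56117548) that is not shown. Of 14893 promoter windows of genes in the count table, 2.26% held it there. The receptor repeat, AGGTCA and again AGGTCA with any 1 base between them, was searched on both strands. No window of the 9 genes held it with 1 mismatch or none (0.403% of all windows did), and with up to 2 mismatches it was found in Plin2 alone, against 3.01% of all windows. The Plin2 match, on the opposite strand and 225 bases upstream at its far end, reads AGGTCAGGGGTCC. The GU-rich element that reads TGTT, TGTT and TGT in a row, to which CELF1 is known to bind in mRNA, was searched on the sense strand of the longest annotated 3′ untranslated region of each gene. It was in none of the 9 genes and in 4.17% of 14111 genes of the table. In regions of like length to those of Fitm2 and Plin3, the longest here at 3124 and 2256 bases, the share was 8.33% and 5.58%. For the other members it ran from 0% (Fitm1, 27 bases) to 3.05% (Plin4, 1416 bases). Absence was thus the usual outcome at each of these lengths. A match, or its absence from these windows, is a description of the letters only.

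Depth was even: libraries held 54835348 to 64979443 counts, and 1 CPM, the unit of counts set relative to library size with TMM factors, stood for 54.9 to 67.8 counts. Celf1 itself had 52.5, 49.8 and 63.0 CPM in Celf1 AKO libraries, against 126, 114 and 144 CPM in Flox control libraries, so the groups did not overlap (log2 fold change -1.21, SE 0.14, edgeR adjusted p = 0.122). Adipocyte markers were high throughout, with 10 of 10 listed genes measured at a summed 50284 to 58218 CPM in Celf1 AKO, against 52781 to 60169 CPM in Flox control, led by Fabp4 and Lpl. Celf1 AKO replicate 3 stood apart from replicates 1 and 2 of its group: across genes, the correlation of its log2 CPM was 0.978 with knockout replicate 1 and 0.976 with knockout replicate 2, and 0.983 to 0.986 with the control libraries.

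The lipid droplet genes covered a wide range of levels. Per length, in the authors' FPKM, Cidec was the most abundant at 3196 ± 984 FPKM in Celf1 AKO and 3408 ± 148 FPKM in Flox control (SD, n = 3 each, as for all errors of levels here). Plin4 averaged 1135 ± 171 FPKM in Celf1 AKO and 940 ± 152 FPKM in Flox control, and Plin1 averaged 804 ± 99.0 FPKM in Celf1 AKO and 867 ± 76.4 FPKM in Flox control. Plin2 came next, at 571 ± 71.3 FPKM in Celf1 AKO and 531 ± 64.2 FPKM in Flox control. The ranges of Plin4 and Plin1 did not overlap in Celf1 AKO, whereas in Flox control they did, at 818 to 1110 FPKM for Plin4 and 819 to 955 FPKM for Plin1. Fitm2 (127 ± 11.7 FPKM in Celf1 AKO and 129 ± 6.88 FPKM in Flox control) and Bscl2 (82.3 ± 5.54 FPKM in Celf1 AKO and 84.6 ± 2.16 FPKM in Flox control) formed a middle tier. Plin5 and Plin3 lay below, and their ranges overlapped in Celf1 AKO, at 12.4 to 28.9 FPKM for Plin5 and 11.7 to 13.5 FPKM for Plin3. In Flox control they did not, at 37.6 to 44.5 FPKM for Plin5 and 11.1 to 16.5 FPKM for Plin3. Fitm1 was last, with a mean of 0.277 FPKM over the 6 libraries. These levels rest on the length that the authors divided by, 1 per gene. It was 3503 bases for Bscl2, whose longest coding transcript in GENCODE M21 has 1962. For Plin3 it was 2164 bases, against 3645, and for Plin1 it was 1920 bases, against 2817. A longer length would lower the FPKM of Plin1, so its place beside Plin4 and Plin2 depends on that choice.

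In the comparison of the genotypes, 8 of the 9 genes passed the filter on low counts and 0 of the 8 passed edgeR's quasi-likelihood test at an adjusted p of 0.05, where 0.0122% of the 16366 genes tested did. Their median log2 fold change was -0.06, beside -0.02 for all genes tested, and 6 of 8 were negative, beside 52.5% of all genes. In 1 of 8, Plin5, the groups did not overlap in CPM, which was so for 17.3% of all genes (9.51% with Celf1 AKO lower, as Plin5 was). The same gene alone had an unadjusted p under 0.05, as did 12.9% of all genes (6.17% lower). These shares are not set against each other by a test.

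**Figure D1:**
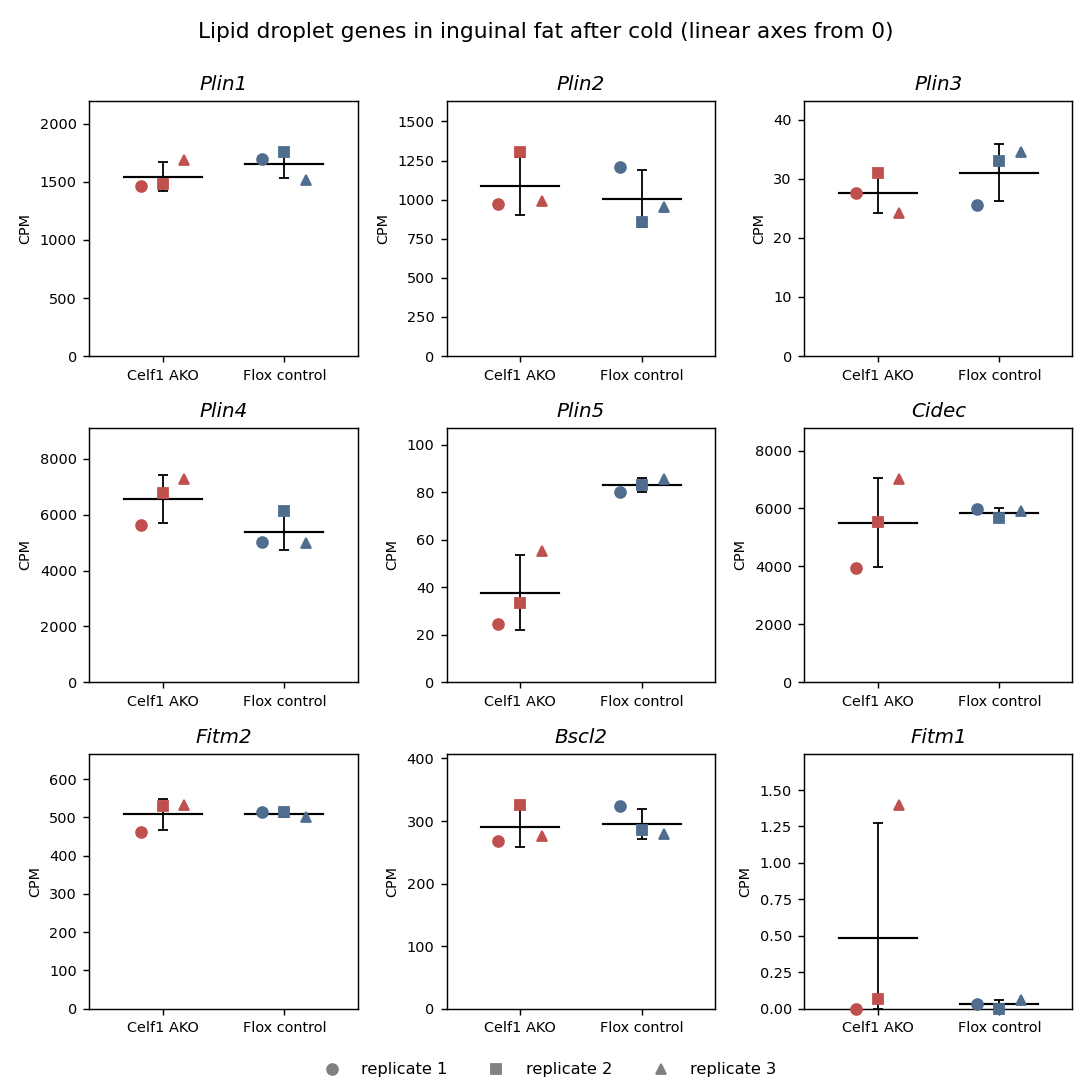
CPM of the 9 lipid droplet genes in each library, Celf1 AKO left and Flox control right in each panel; marker shapes are replicate numbers, horizontal lines means, and bars SDs over 3 libraries, cut at 0. Plin5 is the panel in which all 3 Celf1 AKO libraries (24.7 to 55.3 CPM) lie below all 3 Flox control libraries (80.0 to 85.7 CPM), and Fitm1 is near 0 outside 1 library.

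Plin1 (ENSMUSG00000030546; GRCm38 chromosome 7, 79720218 to 79732903, minus strand), the gatekeeper perilipin of the adipocyte droplet, had 1465, 1482 and 1690 CPM in Celf1 AKO libraries, against 1696, 1756 and 1520 CPM in Flox control libraries. The groups overlapped, and the log2 fold change was -0.10 with a 95% interval from -0.41 to 0.21 (edgeR adjusted p = 0.782). Differences within that interval could not be told from 0 with these libraries.

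Plin4 (ENSMUSG00000002831; chromosome 17, 56100591 to 56109803, minus strand), a perilipin built of many repeats and abundant in white fat, had 5614, 6786 and 7293 CPM in Celf1 AKO libraries, against 5037, 6129 and 4976 CPM in Flox control libraries. Flox control replicate 2 lay above Celf1 AKO replicate 1, so the groups overlapped, although the knockout mean was 122% of the control mean. The log2 fold change of 0.29 had a 95% interval from -0.09 to 0.67 and did not pass (edgeR adjusted p = 0.495).

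Plin2 (ENSMUSG00000028494; chromosome 4, 86648386 to 86670060, minus strand), the perilipin that coats small droplets in most cell types, had 973, 1303 and 993 CPM in Celf1 AKO libraries, against 1211, 855 and 954 CPM in Flox control libraries. A single library of each group stood above the rest, and the log2 fold change of 0.11 (95% interval -0.32 to 0.54) did not pass (edgeR adjusted p = 0.828) and was -0.04 without Celf1 AKO replicate 2. Plin3 (ENSMUSG00000024197; chromosome 17, 56277476 to 56292873, minus strand), which moves between cytosol and droplets in most tissues, had 27.6, 31.0 and 24.3 CPM in Celf1 AKO libraries, against 25.6, 33.1 and 34.5 CPM in Flox control libraries. Its groups overlapped too (log2 fold change -0.17, 95% interval -0.53 to 0.19, edgeR adjusted p = 0.673).

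Plin5 (ENSMUSG00000011305; chromosome 17, 56111601 to 56117596, minus strand) had 1355, 2040 and 3600 counts in Celf1 AKO libraries, against 4663, 5638 and 5602 counts in Flox control libraries. In CPM these were 24.7, 33.4 and 55.3 in Celf1 AKO and 80.0, 83.2 and 85.7 in Flox control, a knockout mean of 45.5% of the control mean. All 3 knockout libraries were below all 3 control libraries, and the knockout values were far more spread, with a coefficient of variation of 41.8% against 3.47% in the controls. The log2 fold change of -1.13 (SE 0.27, 95% interval -1.76 to -0.51) ranked 210th of 16366 genes by p, yet its edgeR adjusted p of 0.251 did not pass.

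The result for Plin5 turned on the tool and on 1 library. With DESeq2 on all 6 libraries its adjusted p was 0.00910 (log2 fold change -1.11), among 0.96% of all genes called lower. Without Celf1 AKO replicate 3, edgeR gave -1.52 with an adjusted p of 0.0174, among 1.76% of all genes called lower, and limma-voom with quality weights on all 6 libraries gave -1.40 with an adjusted p of 0.0520, where 0.0244% of all genes were called lower. Leaving out any other single library, edgeR's adjusted p lay between 0.289 and 0.782, and the log2 fold change between -0.87 and -1.16. None of the other 7 tested lipid droplet genes passed under any of these settings.

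**Figure D2:**
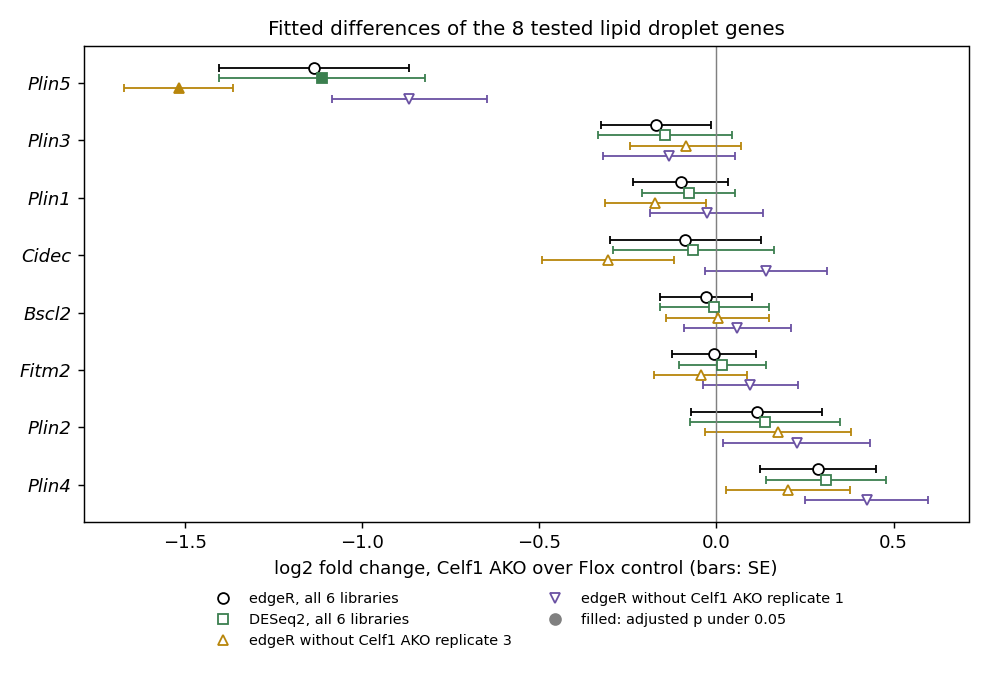
Fitted log2 fold change of Celf1 AKO over Flox control for the 8 tested lipid droplet genes, with SE bars, under 4 of the fits: edgeR and DESeq2 on 6 libraries, and edgeR without Celf1 AKO replicate 3 or 1. Filled markers have an adjusted p under 0.05: Plin5 with DESeq2 (-1.11) and without Celf1 AKO replicate 3 (-1.52), while Plin4 lies between 0.20 and 0.42 and Cidec, Fitm2 and Bscl2 lie on both sides of 0 across the fits.

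Cidec (ENSMUSG00000030278; chromosome 6, 113424634 to 113435760, minus strand) had 3952, 5537 and 7032 CPM in Celf1 AKO libraries, against 5986, 5660 and 5909 CPM in Flox control libraries. The control values were nearly equal and the knockout values lay on both sides of them, with coefficients of variation of 28.0% in Celf1 AKO and 2.91% in Flox control. The log2 fold change was -0.09 (95% interval -0.58 to 0.41, edgeR adjusted p = 0.893), -0.31 without Celf1 AKO replicate 3 and 0.14 without Celf1 AKO replicate 1, so its direction rested on single libraries.

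Fitm2 (ENSMUSG00000048486; chromosome 2, 163466379 to 163472629, minus strand), the widely expressed FIT gene, had 461, 530 and 533 CPM in Celf1 AKO libraries, against 516, 514 and 501 CPM in Flox control libraries. The log2 fold change of -0.01 had a 95% interval from -0.28 to 0.27 (edgeR adjusted p = 0.989) and was 0.02 under RLE scaling, so no direction can be given. Bscl2 (ENSMUSG00000071657; chromosome 19, 8837467 to 8848683, plus strand), whose loss causes a lipodystrophy in people and mice, had 269, 326 and 275 CPM in Celf1 AKO libraries, against 323, 286 and 278 CPM in Flox control libraries. It did not pass either (log2 fold change -0.03, 95% interval -0.33 to 0.27, edgeR adjusted p = 0.945), and without Celf1 AKO replicate 1 the value was 0.06. The sources used here do not give the strand setting of the counting. Exons of Bscl2, Fitm2 and Plin4 overlap those of genes on the opposite strand by 398, 227 and 17 bases (Gng3, 2310001K24Rik and Hdgfl2), and Gng3 and 2310001K24Rik reached at most 1.42 CPM in any library. On its own strand, Bscl2 shares 239 exon bases with the protein-coding gene AC129217.1, which is not in the count table. The effect of that overlap on the Bscl2 counts was not tested.

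Fitm1 (ENSMUSG00000022215; chromosome 14, 55575617 to 55576954, plus strand), the FIT gene of skeletal and heart muscle, had 0, 4 and 91 counts in Celf1 AKO libraries, against 2, 0 and 4 counts in Flox control libraries. It failed the filter on low counts, so it was not tested, and no fold is given: 5 of 6 libraries held 0 to 4 counts, and a count of 0 still allows up to 3 (0.0546 CPM in Celf1 AKO replicate 1 and 0.0443 CPM in Flox control replicate 2, for counting error only). Celf1 AKO replicate 3 stood out, at 1.40 CPM. The same library was the highest for both skeletal muscle markers measured, of 12 listed: Acta1, skeletal muscle actin, had 23.1, 70.6 and 1039 CPM in Celf1 AKO libraries, against 45.1, 75.2 and 33.5 CPM in Flox control libraries. Mb, myoglobin, had 0.0728, 0.0819 and 1.18 CPM in Celf1 AKO libraries, against 0.120, 0.0590 and 0.245 CPM in Flox control libraries. The other 10 listed markers were not analysed here, and the part of muscle RNA in the Fitm1 value was not tested. The antisense gene Gm15932, whose exons share 109 bases with Fitm1, was flat at 0.29 to 0.37 CPM in Celf1 AKO, against 0.29 to 0.38 CPM in Flox control. Plin5 is also a muscle gene, and Celf1 AKO replicate 3 was its highest knockout library. The part of muscle RNA in that value was not tested either, and without this library the Plin5 difference was larger, as given above.

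**Figure D3:**
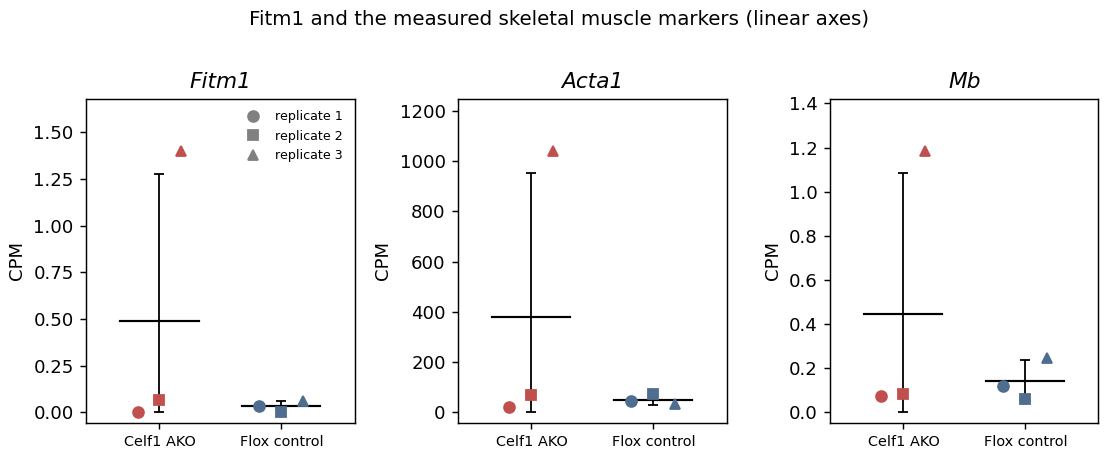
CPM of Fitm1 and of the measured skeletal muscle markers Acta1 and Mb in each library, Celf1 AKO left and Flox control right in each panel; shapes are replicate numbers, lines means, and bars SDs over 3 libraries, cut at 0. In each panel 1 point, Celf1 AKO replicate 3, lies far above the other 5 (1.40, 1039 and 1.18 CPM).

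Within the knockout group, Celf1 AKO replicate 1 was the lowest library for 7 of the 8 tested genes, all but Plin3, which was so for 29.8% of all genes tested. Replicate 3 was the highest for 5 of the 8, against 39.5% of all genes tested, and replicate 2 for Plin2, Plin3 and Bscl2. No Flox control library was the lowest for more than 4 of the 9 genes. The summed adipocyte markers, too, were lowest in Celf1 AKO replicate 1, at 50284 CPM, and highest in replicate 3, at 58218 CPM. In such bulk tissue, fewer cells of a type and less RNA per cell cannot be told apart. Macrophage markers ran the other way in Celf1 AKO replicate 1, which held the highest sum of all libraries (589 to 1543 CPM in Celf1 AKO, against 882 to 1195 CPM in Flox control, 9 of 9 listed genes measured, led by Lyz2 and Cd163). The same library held the highest sums of preadipocyte markers (1288 CPM) and mammary epithelial markers (7.61 CPM), which are listed below. The part of these cell types in the low lipid droplet values there was not tested.

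The make-up of the perilipin family was mostly that of Plin4, Plin1 and Plin2. The 5 perilipins summed to 2543 ± 269 FPKM in Celf1 AKO and 2394 ± 175 FPKM in Flox control. Plin4 made up 42.8%, 44.1% and 46.7% of that sum in Celf1 AKO libraries, against 35.7%, 42.7% and 38.9% in Flox control libraries, so the closest libraries of the groups nearly met. Plin1 made up 33.5%, 28.9% and 32.5% in Celf1 AKO libraries, against 36.1%, 36.8% and 35.7% in Flox control libraries. Its share was thus lower in each knockout library, although its own level overlapped between the groups. Plin5 made up 0.545%, 0.629% and 1.03% in Celf1 AKO libraries, against 1.64%, 1.68% and 1.94% in Flox control libraries. Plin2 stood at 22.6 ± 3.22% in Celf1 AKO and 22.4 ± 4.00% in Flox control, and Plin3 at 0.504 ± 0.0784% in Celf1 AKO and 0.605 ± 0.118% in Flox control. Shares of a sum are tied to each other, they rest on the lengths that the authors divided by, and they were not tested.

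**Figure D4:**
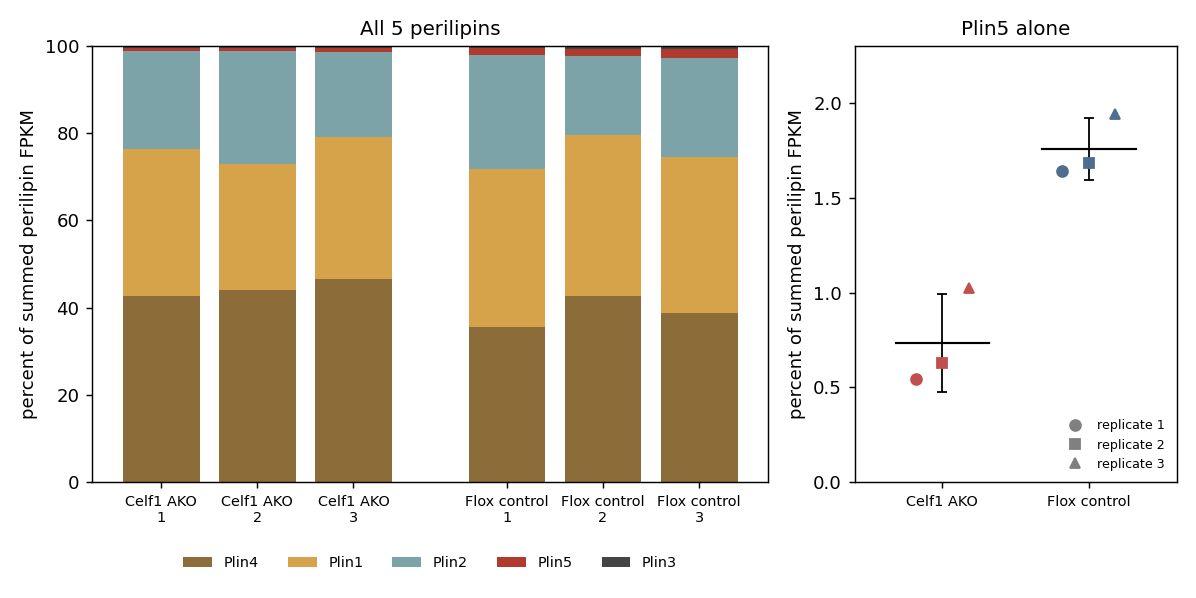
Left, the percent of the summed FPKM of the 5 perilipins that each made up, as stacked bars for each library, Celf1 AKO before Flox control. Right, the Plin5 percent alone, with replicate shapes, mean lines and SD bars over 3 libraries: 0.545% to 1.03% in Celf1 AKO and 1.64% to 1.94% in Flox control.

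The pattern of Plin5 over the 6 libraries was the farthest from those of the other lipid droplet genes. Likeness was measured as the mean absolute difference of log2(CPM + 0.5), each gene centred on its own mean and not scaled. The measure grows with the size of a gene's differences between libraries, so the distance of Plin5 is no finding apart from its fold change. The other lipid droplet gene nearest to Plin5 was Cidec, at 0.54, whereas every other tested gene of the group had a neighbour among them within 0.18. Of all genes, the nearest to Plin5 were Exoc8, of the exocyst complex (0.10), and Slc25a20, the carnitine-acylcarnitine carrier of the inner mitochondrial membrane (0.12). Slc25a20 had 118, 139 and 228 CPM in Celf1 AKO libraries, against 323, 267 and 334 CPM in Flox control libraries, and did not pass (edgeR adjusted p = 0.262). The nearest to Plin1 were Ipo4 and Ap2a1 and those to Plin4 were Pdgfa and Slc44a2, all within 0.05, as was so for the 2 nearest genes of Plin2, Plin3, Cidec, Fitm2 and Bscl2.

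The 8 listed brown and beige adipocyte markers, led by Ucp1 and Cidea, summed to 202 to 451 CPM in Celf1 AKO, against 887 to 965 CPM in Flox control, so the sums did not overlap. By edgeR on all 6 libraries, 0 of 8 passed over all genes. Ucp1 (adjusted p = 0.00929), Dio2 (0.0273) and Cox7a1 (0.0297) passed with DESeq2, where 0.96% of all genes were called lower. Cidea (0.0565), Elovl3 (0.103) and Ppargc1a (0.200) did not. Without Celf1 AKO replicate 3, edgeR called Elovl3 alone of these (adjusted p = 0.0236), among 1.76% of all genes called lower. Ucp1, the largest of the 8 markers in Flox control, was at 39.5 ± 37.6 CPM in Celf1 AKO, against 508 ± 54.2 CPM in Flox control. Of the 8, 7 had negative log2 fold changes, among them Prdm16 and Cox8b, whose groups overlapped, and Ppargc1a was positive (0.85), at 114 ± 62.7 CPM in Celf1 AKO, against 63.0 ± 14.3 CPM in Flox control, with overlap. Unlike Plin5, this sum was lowest in Celf1 AKO replicates 2 and 3 and highest in replicate 1. The summed endothelial markers were at 972 to 1166 CPM in Celf1 AKO, against 512 to 803 CPM in Flox control (8 of 8 listed genes measured, led by Pecam1 and Kdr), and 0 of 8 passed by edgeR on all 6 libraries, with Pecam1 and Vwf overlapping between the groups. Kdr (adjusted p = 0.0106), Cldn5 (0.00608) and Esam (0.0467) passed as higher with DESeq2. It called 340 genes higher and 154 lower, together 3.08% of all genes. Cdh5 (0.0529), Emcn (0.0562) and Tie1 (0.129) did not. Without Celf1 AKO replicate 3, edgeR called Cldn5 alone of these (adjusted p = 0.0402), where 237 of 16520 genes were called higher. Preadipocyte markers (8 of 8 listed, led by Ly6a and Pi16) overlapped, at 720 to 1288 CPM in Celf1 AKO, against 971 to 1250 CPM in Flox control. Neutrophil markers (6 of 7 listed, led by S100a9 and S100a8) summed to 16.5, 26.2 and 114 CPM in Celf1 AKO libraries, against 7.86, 16.7 and 3.41 CPM in Flox control libraries. The highest sum was that of Celf1 AKO replicate 3, and the sums overlapped narrowly. All 6 had positive log2 fold changes, as did 7774 of the 16366 genes tested, and 0 of 6 passed by edgeR. Ngp and S100a9 were higher in Celf1 AKO without overlap, which was so for 1279 of the 16366. Ngp was low throughout, at 0.17, 0 and 0 CPM in Flox control libraries and at most 2.64 CPM in Celf1 AKO. Mammary epithelial markers (4 of 10 listed, led by Cdh1 and Epcam) summed to 7.61, 2.19 and 1.78 CPM in Celf1 AKO libraries, against 1.37, 2.46 and 0.40 CPM in Flox control libraries, with 1 high library, Celf1 AKO replicate 1. No measured marker was at 0 in all 6 libraries. The part of these cell types in the lipid droplet values was not tested.

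Of 64 tested genes in 6 related lists, 0 passed over all genes by edgeR, beside 0.0122% of all genes. With DESeq2, 3 of the 64 passed, all lower (Agpat2, Esrra and Mief2), which is 4.69% beside 3.08% of all genes called in either direction and 0.96% called lower. Without Celf1 AKO replicate 3, edgeR called 5 of the 64, all lower (those 3, Clstn3 and Ppara), which is 7.81% beside 3.19% of all genes called in either direction and 1.76% called lower. Both of these alternatives were applied to the lists after seeing the data. The listed genes Cideb, Hsd17b13 and Agpat6 were not analysed here. In each list the 3 genes of smallest p are named.

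Among 10 tested coat and size proteins, 6 had negative and 4 positive log2 fold changes (median -0.25). Hilpda, an inhibitor of the triglyceride lipase ATGL, had 14.6, 13.0 and 13.6 CPM in Celf1 AKO libraries, against 10.5, 6.69 and 4.87 CPM in Flox control libraries. Its values did not overlap (log2 fold change 0.90, edgeR adjusted p = 0.299). Cidea, the CIDE protein of brown and beige fat, had 102, 65.4 and 38.6 CPM in Celf1 AKO libraries, against 178, 131 and 126 CPM in Flox control libraries, a log2 fold change of -1.08 with the same adjusted p. G0s2, another inhibitor of ATGL, overlapped between the groups (136 ± 65.4 CPM in Celf1 AKO, against 254 ± 81.0 CPM in Flox control).

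Among 10 tested lipolysis enzymes and cofactors, 7 were negative and 3 positive (median -0.10). Prkar2b, the main regulatory subunit of protein kinase A in fat, was at 1424 ± 69.4 CPM in Celf1 AKO, against 1840 ± 78.7 CPM in Flox control, with no overlap (log2 fold change -0.37, edgeR adjusted p = 0.308). Abhd5, the coactivator of ATGL that Plin1 holds at the droplet, overlapped at 184 ± 25.0 CPM in Celf1 AKO, against 229 ± 29.0 CPM in Flox control. Ces1f, a carboxylesterase, was at 262 ± 20.4 CPM in Celf1 AKO, against 311 ± 26.5 CPM in Flox control, without overlap (edgeR adjusted p = 0.447).

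Among 12 tested genes of droplet assembly, 8 were negative and 4 positive (median -0.09). Agpat2, an acyltransferase of triglyceride synthesis whose loss causes lipodystrophy, as that of Bscl2 does, had 788, 915 and 1071 CPM in Celf1 AKO libraries, against 1520, 1446 and 1525 CPM in Flox control libraries. It did not overlap and did not pass (log2 fold change -0.69, SE 0.15, edgeR adjusted p = 0.227). Lpin1, the phosphatidate phosphatase lipin, overlapped at 1556 ± 404 CPM in Celf1 AKO, against 1015 ± 266 CPM in Flox control, and so did Acsl1, the main acyl-CoA synthetase of fat, at 6785 ± 1338 CPM in Celf1 AKO, against 8943 ± 537 CPM in Flox control.

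The transport and contact list (14 tested, 9 negative, median -0.11) was led by Mief2, a receptor of the mitochondrial fission machinery, at 17.0 ± 3.01 CPM in Celf1 AKO, against 27.9 ± 3.10 CPM in Flox control (log2 fold change -0.72, edgeR adjusted p = 0.246). Mospd2, a tether of the endoplasmic reticulum, was at 41.2 ± 3.97 CPM in Celf1 AKO, against 32.9 ± 1.14 CPM in Flox control (0.32, edgeR adjusted p = 0.321), and both were without overlap. Spast, a microtubule-severing protein found on droplets, overlapped (20.8 ± 4.45 CPM in Celf1 AKO, against 27.2 ± 3.53 CPM in Flox control). In the caveolae list (7 tested, 3 negative, median 0.03), Cav2, Cav1 and Cavin2 all overlapped, with log2 fold changes of 0.24, 0.23 and -0.13.

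Among 11 tested transcription factors and coactivators that are known to act on perilipin and CIDE genes, 7 were negative and 4 positive (median -0.21). Esrra, an orphan receptor that drives mitochondrial genes, had 40.0, 38.0 and 53.1 CPM in Celf1 AKO libraries, against 94.9, 80.0 and 93.0 CPM in Flox control libraries, with no overlap (log2 fold change -1.03, SE 0.15, edgeR adjusted p = 0.215). Ppara, the fatty acid-sensing receptor of oxidative tissues, had 8.14, 6.58 and 20.5 CPM in Celf1 AKO libraries, against 28.7, 19.2 and 37.4 CPM in Flox control libraries, and its groups overlapped (-1.28, edgeR adjusted p = 0.322). Ppargc1b, a coactivator of both, was at 15.2 ± 1.41 CPM in Celf1 AKO, against 21.3 ± 4.94 CPM in Flox control, without overlap (-0.48, edgeR adjusted p = 0.347). Pparg, the master receptor of adipocytes, named here though its p was not among the smallest, was at 215 ± 19.7 CPM in Celf1 AKO, against 224 ± 16.5 CPM in Flox control.

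**Figure D5:**
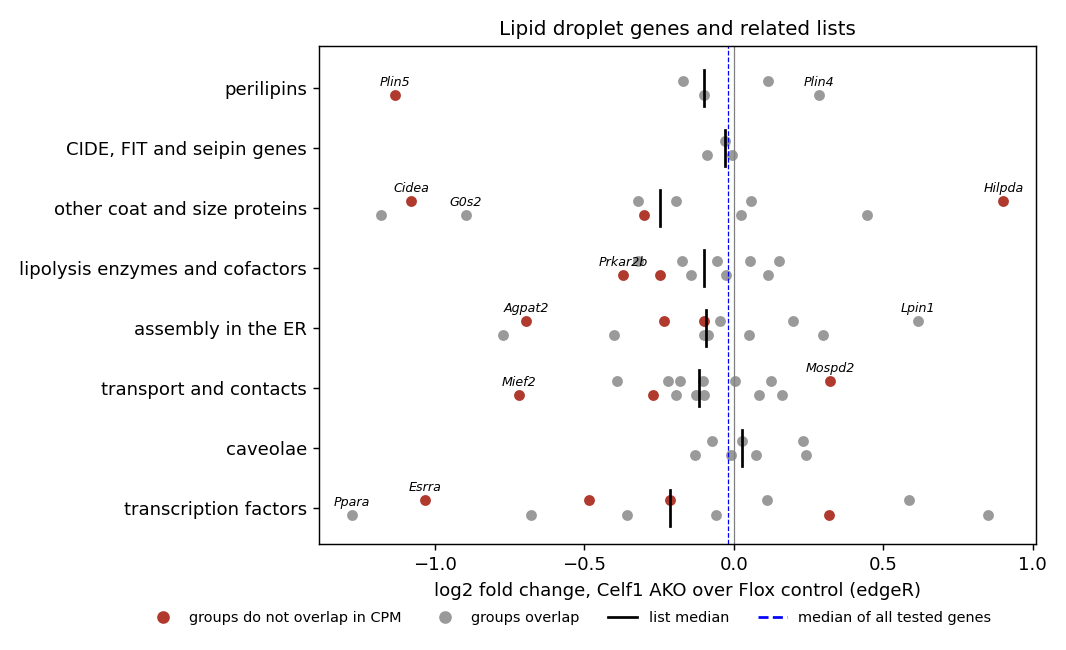
Fitted log2 fold change (edgeR) of each tested gene, Celf1 AKO over Flox control, in the lists of lipid droplet genes and the 6 related lists; red points are genes whose groups do not overlap in CPM, black bars list medians, and the dashed line the median of all tested genes (-0.02). Plin5 (-1.13) lies apart from the other perilipins, and the list medians run from -0.25 to 0.03.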

How the data were processed

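The authors deposited raw read counts per Ensembl gene for 6 libraries (16627 genes, unit counts, per the file headers 1 column per library) and FPKM values of the same genes. HISAT2, RSEM 1.3.1, GRCm38 and mm10 are named, without roles, per the submitters' processing notes. FPKM, by the authors, divide each count by 1 length per gene and a factor per library. Symbols and positions came from GENCODE M21 (16522 identifiers matched, 105 did not).

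Counts were tested with edgeR 4.0.16 (R 4.3.3): TMM scaling, default expression filter (16366 genes tested), robust quasi-likelihood fit with only genotype in the model, Benjamini-Hochberg adjustment over all genes, threshold 0.05. DESeq2 1.42.0, limma 3.58.1, other scalings, filters and pseudocounts, and leaving out each library were alternatives. On simulated counts (16193 genes after the filter) with 50 genes per fold, the edgeR fit found 4% at 1.5-fold, 42% at 2-fold and 88% at 4-fold, and called 12 unchanged genes. An adjusted p depends on how many genes differ, and on the data the same fit called only 2. These shares are therefore not the power for the members. The members and lists were chosen with earlier results of these data known. Named genes are the members, Celf1, the 3 genes of smallest p per related list, the most abundant markers and the nearest patterns. No columns were left out, and no 2 libraries agreed within sampling noise (chi-square over degrees of freedom at least 48.0).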

Additional observations from a re-analysis of the deposited data

How the results depend on the processing

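Of the members, Plin5 alone gained a call (DESeq2, log2 fold change -1.11; without Celf1 AKO replicate 3, -1.52), and with 1 library left out it ran from -1.52 to -0.87; Plin1, Plin3, Plin4 and Plin5 kept their direction under every alternative run. Leaving out 1 library, Plin1 ran from -0.17 to -0.03, Plin3 from -0.29 to -0.09, Plin4 from 0.20 to 0.42, Plin2 from -0.036 (without Celf1 AKO replicate 2) to 0.27, Cidec from -0.31 to 0.14 (without Celf1 AKO replicate 1), Fitm2 from -0.044 to 0.096 and Bscl2 from -0.12 to 0.060 (both highest without Celf1 AKO replicate 1), and Celf1 from -1.32 to -1.12, genes called higher from 0 to 237 and lower from 0 to 290, and genes of the related lists called lower from 0 to 5. Fitm2 was also positive with RLE (0.017) and upper-quartile factors (0.0098), the minimum of 5 CPM in 3 libraries (0.014) and DESeq2 (0.017), and Bscl2 with limma-voom and quality weights (0.021). Over all genes, where edgeR called 2 higher and 0 lower, DESeq2 called 340 higher and 154 lower, limma-voom with quality weights 6 and 4, limma-voom 0, library size alone 0, the stricter filter 0, log2(FPKM + 1) and log2(FPKM + 0.1) 0, and log2(FPKM + 1) with no minimum 1 higher. By edgeR 2113 genes, 1009 of them lower, had an unadjusted p under 0.05. In the related lists DESeq2 called 3 lower and limma-voom with quality weights 1 (Esrra). All alternatives, leaving out a library among them, were applied to these lists after seeing the data. Celf1 passed with DESeq2 (-1.19), with quality weights (-1.25) with the replicate block (-1.21) and without Celf1 AKO replicate 3 (-1.32). The cause of these changes was not tested. The Plin5 share difference was -1.02 percentage points in FPKM and -0.62 in counts, which are not per length.

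Same-numbered libraries deviated together at correlations of 0.07, -0.01 and 0.27, and Celf1 AKO replicate 2 deviated most like Flox control replicate 1 (0.30), so the numbers were not taken as pairs. With the replicate block edgeR called 9 genes higher and 3 lower, and Plin5 had an adjusted p of 0.135. Of the members, Fitm1 alone failed the filter on low counts, and the part of depth in that was not tested.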
